A study of Arabidopsis thaliana with 18 samples.

Results

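Transcripts of 10 NAC transcription factors with reported roles in leaf senescence were followed in leaves of Arabidopsis thaliana by RNA sequencing. The genes were picked by locus from the deposited table and are NAP (AT1G69490), ORE1 (AT5G39610), ORS1 (AT3G29035), ATAF1 (AT1G01720), NAC016 (AT1G34180), NAC055 (AT3G15500), NAC019 (AT1G52890), RD26 (AT4G27410), JUB1 (AT2G43000) and VNI2 (AT5G13180). They are 10 of the 27628 genes listed, and all 10 were among the 19493 genes with enough counts to be tested. Of these, 8 are reported to promote senescence and 2, JUB1 and VNI2, to delay it. The study compared the wild type (WT) with lines labelled ml2 knockdown and ml5 knockdown, read here as knockdowns of ML2 and ML5, genes of MEI2-like RNA-binding proteins. Leaf was sampled at day 0 and day 7 of a treatment labelled Dark, in 6 groups of 3 libraries. The table marks its columns CK and D in place of days, and CK was taken to mean day 0 and D day 7. That reading is inferred. Doxycycline appears in the extraction protocol, but no sample label assigns it. The sources used here do not say how the knockdowns were made, how old the plants were, at which hour they were harvested or whether the 3 replicates of a group are different plants. The p-values therefore measure only how far these libraries spread.

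NAC proteins are plant transcription factors that share a DNA-binding NAC domain at the amino end, and many of their genes are switched on as leaves age or are kept in the dark. Senescence is an ordered breakdown in which chlorophyll, proteins and nucleic acids are degraded and their nutrients exported. NAP acts through abscisic acid, since it activates the synthesis gene AAO3 and the phosphatase gene SAG113. ORE1 acts downstream of the ethylene regulator EIN2, activates the nuclease gene BFN1 and chlorophyll breakdown genes, and is held back in young leaves by the microRNA miR164. ORS1 is its closest relative, and its overexpression speeds senescence. ATAF1 activates ORE1 and represses the chloroplast regulator GLK1, and NAC016 activates NAP. NAC055, NAC019 and RD26 are stress-induced relatives that respond to abscisic acid and jasmonate. JUB1 is induced by hydrogen peroxide and activates DREB2A, while VNI2 restrains xylem vessel differentiation and activates cold- and drought-response genes.

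Library totals ran from 14914598 to 20417396 counts. Levels are CPM after TMM scaling, given as mean ± SD with n = 3, and differences are log2 fold changes ± SE from edgeR's quasi-likelihood fit over all 18 libraries. A call means an adjusted p under 0.05 (Benjamini-Hochberg over all genes tested, two-sided). At day 0 the targeted genes were low in their own lines, ML2 down from 61.2 ± 2.26 CPM in WT leaves to 6.35 ± 1.02 in the ml2 line and ML5 from 208 ± 5.85 to 1.21 ± 0.327 in the ml5 line. Between replicates the chi-square divided by its degrees of freedom was 1.76 to 5.77, where counting noise alone gives 1. The exception was replicate 1 of ml2 at day 0, at 12.9 and 8.74 against the other libraries of its group. Leaf markers (RBCS1A, LHCB5, CAB3 and RCA, all 4 detected) summed to 49000 to 49900 CPM in WT, 33300 to 35400 in ml2 and 44000 to 45900 in ml5 at day 0, and at day 7 to 752 to 764 CPM in WT, 574 to 601 in ml2 and 1220 to 1260 in ml5. Sums over 3 root and 3 flower markers stayed at or under 8.03 and 4.17 CPM in every library. AG, the only flower marker tested, was lower than WT at day 0 in both lines, and did not pass in either at day 7. Its day 0 level was 3.87 ± 0.286 CPM in WT, 2.01 ± 0.055 in ml2 and 1.65 ± 0.245 in ml5. Both tested root markers, PYK10 and NRT2.1, were higher in ml2 than in WT at day 7 (1.09 ± 0.19 and 1.8 ± 0.4) and lower in ml5 than in ml2 (-2.13 ± 0.21 and -1.69 ± 0.39). At day 0 PYK10 was higher than WT in ml2 (3.91 ± 0.115 against 1.22 ± 0.271 CPM) and in ml5 (2.24 ± 0.307 CPM). NRT2.1 did not pass in either line on that day (0.579 ± 0.53 in ml2 and -0.865 ± 0.69 in ml5). The part of these marker differences in the results was not tested, and in whole leaves fewer cells of a type and less RNA per cell cannot be told apart.

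The miR164 sequence and the matching stretches of target transcripts are shown because ORE1 and ORS1, a pair of close relatives, differed in them. Sequences are from RefSeq (TAIR10.1), the microRNA with its seed, bases 2 to 8, in capitals. In the sites, capitals mark Watson-Crick pairs and lower-case letters mark mismatches and G:U pairs. The site of NAC100, another NAC gene, is given for comparison.
miR164a, chr2:19520770-19520790, plus strand: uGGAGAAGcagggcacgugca
ORE1 site, chr5:15858797-15858817, minus strand: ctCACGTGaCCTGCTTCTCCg
ORS1 site, chr3:11034693-11034713, plus strand: ctCACGTtaCCTaCTTCTCCg
NAC100 site, chr5:24701687-24701707, minus strand: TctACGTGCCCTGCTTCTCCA

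The mature miR164b-5p equals miR164a, and miR164c-5p differs by A21G, with positions counted from 1 at the 5′ end of miR164a. In the coding sequence of ORE1 the best site had 3 mismatches and 1 G:U pair, a score of 3.5 with 1 for a mismatch and 0.5 for a G:U pair. Of 27419 transcripts searched, 16 had a site at or under 3.5, a limit equal to the ORE1 score, and ORE1 was the single member among them. BRI1 and TSD2, genes outside the NAC family, also scored 3.5, while NAC100 and NAC080 scored 1.5. The best site of ORS1 also lies in its coding sequence and had 5 mismatches and 1 G:U pair. The other 8 members scored between 6.5 and 8.0. A match is a description of letters, and the mature microRNA was not measured here.

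Stretches of 250 bases before the annotated gene start are shown for NAP, NAC019 and NAC055. NAC019 and NAC055 have the most alike coding sequences of all pairs of members (78.1% identical over the longer one), and their levels separated in the lines after darkness. Capitals mark the G-box (CACGTG) and the ABRE core (ACGTG, bound by abscisic acid response factors, and contained in every G-box), searched on both strands.
NAP promoter, chr1:26121830-26122079, plus strand: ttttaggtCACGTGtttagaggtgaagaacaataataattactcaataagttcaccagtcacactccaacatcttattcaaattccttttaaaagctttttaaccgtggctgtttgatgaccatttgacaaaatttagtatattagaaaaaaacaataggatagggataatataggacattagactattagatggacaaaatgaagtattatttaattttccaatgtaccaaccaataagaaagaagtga
NAC019 promoter, chr1:19698483-19698732, minus strand: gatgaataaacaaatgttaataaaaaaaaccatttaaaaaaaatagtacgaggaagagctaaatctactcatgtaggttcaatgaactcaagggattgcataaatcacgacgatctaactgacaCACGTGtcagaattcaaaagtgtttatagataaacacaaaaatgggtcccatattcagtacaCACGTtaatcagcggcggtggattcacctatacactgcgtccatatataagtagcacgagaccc
NAC055 promoter, chr3:5234207-5234456, plus strand: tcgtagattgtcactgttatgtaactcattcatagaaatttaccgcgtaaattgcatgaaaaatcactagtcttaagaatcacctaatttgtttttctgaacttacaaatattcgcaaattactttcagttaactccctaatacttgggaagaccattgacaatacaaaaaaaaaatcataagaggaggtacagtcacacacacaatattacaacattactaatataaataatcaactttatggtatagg

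Within these 250 bases, a G-box began at -242 in NAP and at -126 in NAC019, in bases from the gene start, and was in no other member. It was present in 6.48% of 27419 promoters of the same length. The ABRE core was found in NAP, NAC019, RD26 and VNI2, against 22.9% of all promoters. The W-box core (TTGAC, the WRKY factor motif) was found in NAP, ATAF1, NAC055 and JUB1, against 44.9% of all. CATGTG, the core bound by NAC proteins in the ERD1 promoter, was in 0 of the 10 members and in 11.1% of all promoters. Bases further upstream were not searched for any motif.

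All 10 NAC transcripts were higher after 7 days of darkness in WT, in ml2 and in ml5, repressors included. Of all tested genes 81.9% were called in WT (42.0% higher and 39.9% lower), 79.8% in ml2 (39.6% and 40.2%) and 79.8% in ml5 (39.7% and 40.1%). The median log2 fold change of the members was 2.14 in WT, 1.21 in ml2 and 1.56 in ml5, where the median of all tested genes was 0.044, 0.00071 and 0.002. NAC019 moved most in WT, from 3.81 ± 1.47 to 304 ± 0.729 CPM, a log2 fold change of 6.34 ± 0.10 (81.2-fold, adjusted p = 1.21e-30). ORS1 moved least, by 0.35 ± 0.069 (1.27-fold, adjusted p = 3.46e-05). Scaling by library size alone raised the median of all genes by 0.38 in WT, 0.23 in ml2 and 0.41 in ml5, and all 10 members stayed called in each genotype.

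**Figure D1:**
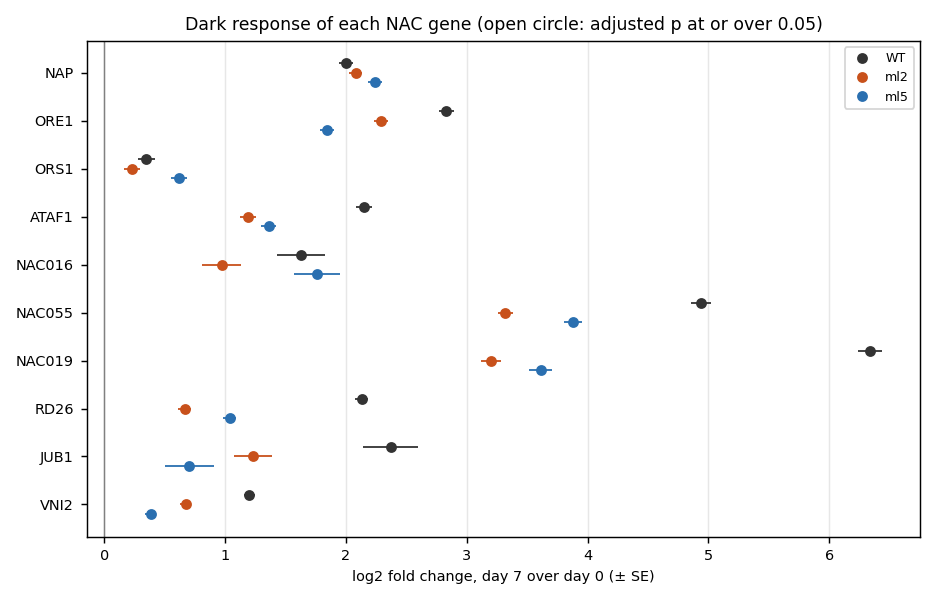
Dark response of each NAC gene, as the log2 fold change of day 7 over day 0 ± SE (x axis) in WT (black), ml2 (orange) and ml5 (blue), with n = 3 libraries a group. Every point lies above 0; NAC019 and NAC055 reach 6.34 and 4.94 in WT, and ORS1 stays at or under 0.62 in each genotype.

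At day 0, before the dark period, all 10 members were higher in ml2 than in WT (21.9% of all tested genes were, and 22.6% were lower, 44.5% in all). Their median log2 fold change was 1.16 against -0.0065 for all genes, with NAC019 at 2.33 ± 0.13 (5.01-fold) and NAC055 at 1.98 ± 0.099 (3.95-fold) ahead. The smallest, VNI2 at 0.13 ± 0.047 (adjusted p = 0.0245), rested on overlapping libraries and did not pass with RLE size factors (0.09, adjusted p = 0.121), DESeq2 (0.09), the compared groups alone (0.15) and when any of 4 libraries was left out: replicates 1 (0.11) and 3 (0.13) of WT, and 2 (0.11) and 3 (0.09) of ml2. In ml5, 6 members were higher at day 0 (19.5% of all genes, of which 38.3% were called in either direction), with NAC019 at 1.24 ± 0.15 and JUB1 at 1.12 ± 0.27. NAP alone was lower (-0.72 ± 0.065; 18.8% of all genes were lower). ORS1 (0.14 ± 0.072), NAC016 (0.12 ± 0.25) and VNI2 (-0.06 ± 0.048) did not pass.

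After 7 days the members split in ml2. NAP, ORE1, ORS1, NAC016, NAC055 and JUB1 were higher than in WT, 6 of 10 where 13.4% of all genes were. NAC019, VNI2, RD26 and ATAF1 were lower, 4 of 10 where 12.4% of all genes were (25.8% in either direction). In ml5 only ORS1 was higher (0.41 ± 0.064; 19.3% of all genes), and 8 members were lower (24.0% of all genes, with 43.3% called in either direction), NAC019 the most at -1.49 ± 0.067. All 4 leaf markers were higher in ml5 than in WT on that day (median log2 fold change 1.11). In ml2 LHCB5 (0.38 ± 0.043) and CAB3 (0.68 ± 0.22) were higher, RCA was lower (-0.59 ± 0.031) and RBCS1A did not pass. CAB3 stayed at or under 1.39 CPM in every library of day 7. For ml5 against WT at day 7, NAC016 did not pass (0.25 ± 0.15, adjusted p = 0.188). It did pass when the fit held the compared groups alone (0.28, adjusted p = 0.0473). The fall of JUB1 in ml5 (-0.54 ± 0.16, adjusted p = 0.00734) was lost without ml5 day 7 replicate 3 (-0.44, adjusted p = 0.0529).

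**Figure D2:**
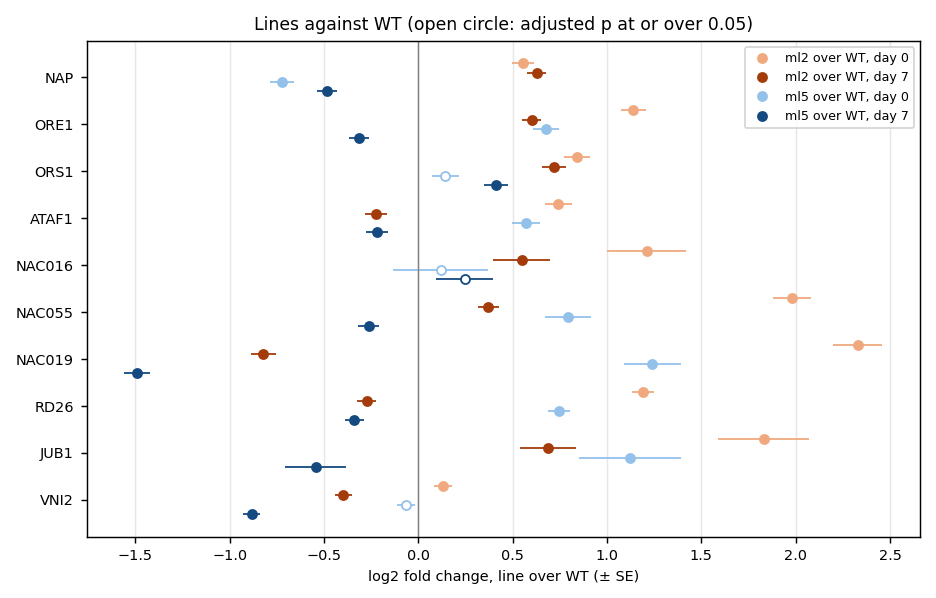
Log2 fold change of each line over WT ± SE (x axis) for each NAC gene at day 0 (light) and day 7 (dark) in ml2 (orange) and ml5 (blue), n = 3 libraries a group. Open circles did not pass an adjusted p of 0.05; NAC019 lies at 2.33 and 1.24 at day 0 and at -0.82 and -1.49 at day 7.

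The change from day 0 to day 7 was smaller in ml2 than in WT for 7 members (15.6% of all genes) and larger for 0 (13.4% of all genes; 29.0% in either direction), as tested by the interaction of genotype and day. The differences in log2 fold change were -3.15 ± 0.14 for NAC019, -1.61 ± 0.12 for NAC055, -1.46 ± 0.076 for RD26, -1.14 ± 0.29 for JUB1, -0.96 ± 0.093 for ATAF1, -0.54 ± 0.084 for ORE1 and -0.53 ± 0.066 for VNI2. NAP (0.07 ± 0.079), ORS1 (-0.12 ± 0.093) and NAC016 (-0.66 ± 0.26, adjusted p = 0.0543) did not pass. In ml5 the same test was lower for 7 members (18.1% of all genes) and higher for NAP (0.24 ± 0.084) and ORS1 (0.27 ± 0.096), where 17.4% of all genes were (35.4% in either direction). For ml2 minus WT, NAC016 did pass without ml2 day 0 replicate 1 (-0.68), ml2 day 7 replicate 1 (-0.73) or any replicate of ml5 day 0 (-0.66). NAC016 also passed with the compared groups alone (-0.66) and with library sizes alone (-0.82, where ORS1 also passed at -0.27). The NAP call in ml5 was lost without WT day 0 replicate 1 (0.23) or 3 (0.21), WT day 7 replicate 1 (0.22), ml5 day 0 replicate 3 (0.15) or ml5 day 7 replicate 2 (0.22). The ORS1 call in ml5 was lost without WT day 0 replicate 1 or 3, WT day 7 replicate 1 or 2, ml5 day 0 replicate 1 or 3 or ml5 day 7 replicate 1, at values from 0.25 to 0.27. Both line comparisons share the WT libraries.

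NAP, the abscisic acid-linked activator, stood at 60.7, 57.8 and 61.8 CPM in WT at day 0, at 84.1, 86.5 and 94.3 in ml2 and at 39.3, 38.0 and 32.4 in ml5. At day 7 it read 235, 244 and 244 CPM in WT, 374, 355 and 388 in ml2 and 171, 175 and 171 in ml5. No groups overlapped: ml2 was above WT and ml5 below WT on both days. The log2 fold change over WT was 0.55 ± 0.059 and 0.63 ± 0.052 in ml2, and -0.72 ± 0.065 and -0.49 ± 0.053 in ml5, at day 0 and day 7. NAP was the only member lower in ml5 than in WT on both days by the test. Its dark rise was 2.0 ± 0.058 in WT, 2.08 ± 0.056 in ml2 and 2.24 ± 0.061 in ml5.

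ORE1, the miR164-controlled activator, stood at 23.5, 21.9 and 23.8 CPM in WT at day 0, at 52.1, 53.8 and 46.5 in ml2 and at 35, 38.4 and 37.3 in ml5. After 7 days it read 158, 168 and 167 CPM in WT, 258, 237 and 252 in ml2 and 130, 133 and 133 in ml5. Its order of levels thus changed between the days: ml5 lay above WT at day 0 (0.68 ± 0.069) and below it at day 7 (-0.32 ± 0.052), and ml2 lay above both throughout. The dark rise was 7.10-fold in WT, 4.90-fold in ml2 and 3.57-fold in ml5.

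ORS1, the relative of ORE1, read 43.3, 42.3 and 43.2 CPM in WT, 66.6, 80.2 and 83.8 in ml2 and 46.5, 48.7 and 47.1 in ml5 at day 0. At day 7 the values were 53.6, 53.6 and 57.0 CPM in WT, 91.1, 85.1 and 94.4 in ml2 and 74.2, 71.4 and 73.1 in ml5. Darkness moved ORS1 little where it moved ORE1 a lot, and ml2 at day 0 already lay above WT at day 7. In ml2 the dark rise of ORS1 was 0.23 ± 0.063 (adjusted p = 0.00153) and 0.14 without ml2 day 0 replicate 1, its lowest library there (adjusted p = 0.0184). ORS1 was the member with the highest ml5 level relative to WT at day 7 by a called difference, at 133% of WT.

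ATAF1, an activator of ORE1, rose with darkness from 22.6 ± 1.17 to 100 ± 2.81 CPM in WT, from 37.8 ± 3.45 to 86.1 ± 3.42 in ml2 and from 33.6 ± 2.18 to 86.4 ± 1.05 in ml5. It was thus above WT before darkness in ml2 (0.74 ± 0.072) and ml5 (0.57 ± 0.075), and below WT after it (-0.22 ± 0.058 in ml2 and -0.22 ± 0.058 in ml5). Neither the difference of ml5 from ml2 at day 0 (-0.17 ± 0.069, adjusted p = 0.0622) nor that at day 7 (0.0049 ± 0.058) passed. At day 0 it did pass without ml2 day 0 replicate 3 (-0.25) or ml5 day 0 replicate 1 (-0.22), and with library sizes alone (-0.27). NAC016, an activator of NAP, was among the members with the fewest reads, 26 to 30 in WT and 16 to 38 in ml5 at day 0. Its level went from 1.91 ± 0.125 to 5.92 ± 0.193 CPM in WT, from 4.40 ± 0.448 to 8.65 ± 0.839 in ml2 and from 2.09 ± 0.890 to 7.01 ± 0.130 in ml5. In ml5 at day 0, replicate 3 was at 1.06 CPM and replicates 1 and 2 at 2.62 and 2.59.

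NAC019, one of the stress-induced relatives, read 2.56, 5.42 and 3.46 CPM in WT at day 0, 18, 19.9 and 18.4 in ml2 and 9.48, 9.25 and 7.96 in ml5. At day 7 it read 304, 305 and 304 CPM in WT, 180, 161 and 175 in ml2 and 106, 112 and 107 in ml5. WT moved from the lowest genotype at day 0 to the highest at day 7, and ml2 lay above ml5 on both days, with no overlap at any step. Its log2 fold change over WT went from 2.33 ± 0.13 to -0.82 ± 0.065 in ml2 and from 1.24 ± 0.15 to -1.49 ± 0.067 in ml5. In the dark lines NAC019 reached 56.6% and 35.6% of its level in WT at day 7. Among all tested genes, 99.4% had a higher difference of dark response in ml2 than NAC019.

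NAC055, the closest relative of NAC019, read 5.90, 4.58 and 5.81 CPM in WT at day 0, 21.2, 22.8 and 20.8 in ml2 and 8.01, 10.3 and 9.95 in ml5. At day 7 it read 166, 166 and 171 CPM in WT, 230, 207 and 214 in ml2 and 142, 143 and 134 in ml5. It started like NAC019, highest in ml2 and lowest in WT, but ended highest in ml2, at 129% of WT (0.37 ± 0.056, adjusted p = 4.4e-06), where NAC019 was lower than WT. In ml5 it ended lower than WT, by -0.26 ± 0.056 (adjusted p = 0.000292). RD26, the third of these relatives, rose from 63.9 ± 2.98 to 280 ± 6.68 CPM in WT, from 146 ± 11.9 to 231 ± 3.03 in ml2 and from 107 ± 6.50 to 221 ± 1.96 in ml5. RD26 was therefore 2.28-fold above WT in ml2 at day 0 and below it at day 7 (-0.27 ± 0.051 in ml2 and -0.34 ± 0.051 in ml5).

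**Figure D3:**
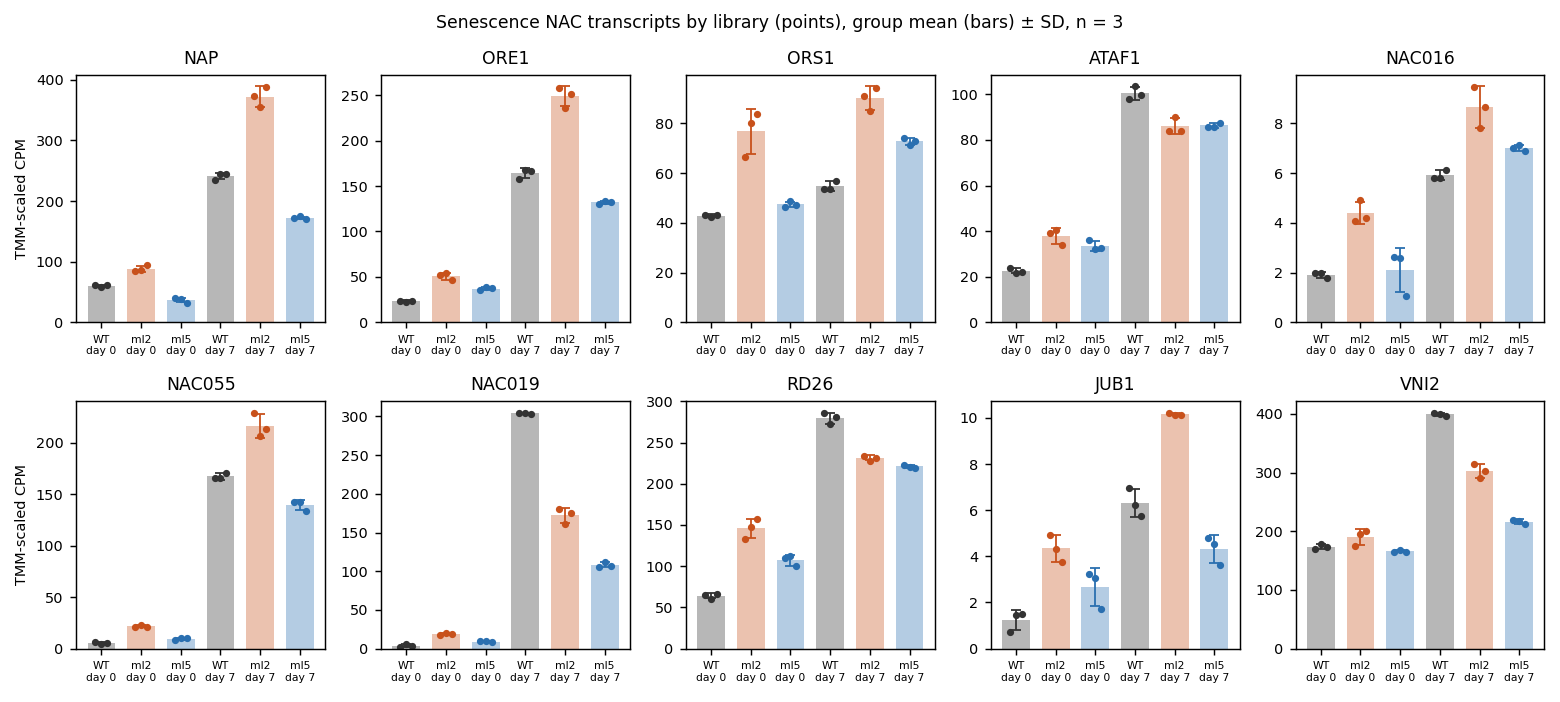
TMM-scaled CPM of each NAC transcript (y axis, a scale of its own for each gene) in the 3 genotypes at day 0 and at day 7; points are libraries, bars the mean and whiskers the SD of 3. At day 7 NAC019 stands at 304 CPM in WT and 172 and 108 in ml2 and ml5, while NAP stands at 241 CPM in WT and 372 and 172.

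Of the repressors, JUB1 was measured at low depth, with 11 to 23 reads in WT at day 0. It read 0.722, 1.45 and 1.5 CPM in WT at day 0, 4.93, 4.31 and 3.77 in ml2 and 3.24, 3.06 and 1.72 in ml5. At day 7 it read 6.94, 6.21 and 5.74 CPM in WT, 10.2, 10.1 and 10.1 in ml2 and 4.80, 4.51 and 3.64 in ml5. The lines lay on opposite sides of WT after darkness and both above it before. The log2 fold change over WT was 1.83 ± 0.24 and 0.69 ± 0.15 in ml2, and 1.12 ± 0.27 and -0.54 ± 0.16 in ml5, at day 0 and day 7.

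VNI2, the other repressor, read 169, 178 and 173 CPM in WT at day 0, 175, 195 and 200 in ml2 and 165, 168 and 164 in ml5. At day 7 the values were 402, 399 and 396 CPM in WT, 315, 291 and 303 in ml2 and 220, 217 and 212 in ml5. The genotypes lay close together at day 0 and apart after darkness, with both lines below WT, at 75.9% and 54.2% of its level. The log2 fold change at day 7 was -0.40 ± 0.046 in ml2 and -0.88 ± 0.046 in ml5 (adjusted p = 3.65e-08 and 5.55e-16). Xylem markers (IRX3, XCP1 and IRX5, all 3 detected) summed to between 9.18 and 12 CPM in libraries of day 0 and to between 2.06 and 3.25 CPM at day 7, the opposite direction to VNI2, and 0 of the 3 was called between either line and WT.

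Between the lines, ml5 was lower than ml2 for 9 members at day 0 (14.5% of all genes) and for 7 at day 7 (22.4% of all genes). It was higher for 0 members on either day, where 14.2% and 19.0% of all genes were (28.7% and 41.4% in either direction). At day 0 the exception was ATAF1, and at day 7 the exceptions were ATAF1, NAC016 and RD26. JUB1 and NAP had the largest differences at day 7, -1.23 ± 0.16 and -1.11 ± 0.053. The dark response was larger in ml5 than in ml2 for ORS1, NAC016, NAC055, NAC019 and RD26 (5 members, 13.6% of all genes) and smaller for ORE1 and VNI2 (2 members, 12.2% of all genes; 25.8% in either direction). Leaving out ml5 day 0 replicate 3 ended the day 0 call of JUB1 (-0.46, adjusted p = 0.118) and the response calls of NAC016 (0.46, adjusted p = 0.149) and NAC019 (0.33, adjusted p = 0.0929). It also brought NAC016 past the test at day 7 (-0.30) and JUB1 past it for the response (-0.77). The NAC016 response was lost without ml2 day 0 replicate 2 as well (0.70), and that of VNI2 with library sizes alone (-0.11, adjusted p = 0.212). Without ml2 day 0 replicate 1 the number of members called was 10, as in the whole data, for ml2 against WT at day 0 and for darkness in ml2. It went from 7 to 8 for ml5 against WT at day 0, where VNI2 became lower (-0.10, adjusted p = 0.0303). It went from 7 to 8 for the difference of dark response of ml2 from WT, where NAC016 was added, and of ml5 from ml2, where NAP was added.

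Set in order over the 6 groups, the members did not share one pattern. All 5 neighbouring steps passed the test in NAP, ORE1, NAC055 and NAC019. Neighbours that did not differ by the test were WT and ml5 at day 0 for ORS1, NAC016 and VNI2, ml5 at day 7 and ml2 at day 0 for ORS1 and JUB1, both lines at day 7 for ATAF1 and RD26, both lines at day 0 for ATAF1, and WT, ml5 and ml2 at day 7, in that order, for NAC016. The top group was ml2 at day 7 for NAP, ORE1, ORS1, NAC016, NAC055 and JUB1. It was WT at day 7 for ATAF1, NAC019, RD26 and VNI2.

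Levels of different genes were compared per kilobase of the longest transcript, leaving out RD26, whose models of 973 and 1787 bases would place it differently. Among the other members in WT at day 0, VNI2 had 115 ± 3.06 CPM per kb, NAP 48 ± 1.69 and ORS1 30.0 ± 0.382. NAC019, NAC055, NAC016 and JUB1 lay between 0.891 and 3.52 CPM per kb there. At day 7 in WT VNI2 had 265 ± 1.96 CPM per kb and NAC019 224 ± 0.536. In ml2 at day 7 NAP had 297 ± 13.5 CPM per kb against 201 ± 8.12 for VNI2. NAC016 and JUB1 stayed at or under 7.40 CPM per kb in every group.

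Ratios of counts within a library do not depend on scaling. These pairs were chosen after the values were seen, and an exact two-sided permutation test of 3 libraries against 3 can give no p under 0.1, or 0.125 adjusted over the 35 ratio tests run, so none could pass. NAC019 over NAC055 was 1.82 in WT at day 7 (log2 0.87, 0.88 and 0.83), 0.795 in ml2 (log2 -0.35, -0.36 and -0.29) and 0.774 in ml5 (log2 -0.43, -0.35 and -0.33). WT did not overlap with either line, so NAC019 had more counts in WT leaves after darkness and NAC055 more in both lines (exact permutation p = 0.1 each). At day 0 the ratio was 0.676 in WT, 0.869 in ml2 and 0.946 in ml5, and the WT libraries spread from -1.20 to 0.24 on the log2 scale and overlapped with both lines.

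The count ratio of NAP, a promoter, to VNI2, a repressor, was 0.604 in WT, 1.23 in ml2 and 0.796 in ml5 at day 7. At day 0 it was 0.346 in WT, 0.465 in ml2 and 0.220 in ml5. ml2 lay above WT on both days and ml5 below WT at day 0 and above it at day 7, with no overlap between these groups (exact permutation p = 0.1 for each). ORE1 over ORS1 went from 0.537 to 3.00 in WT, from 0.663 to 2.76 in ml2 and from 0.777 to 1.81 in ml5. ORE1 over NAP was 0.384 in WT, 0.575 in ml2 and 1.01 in ml5 at day 0, and lay between 0.668 and 0.766 in all 3 genotypes at day 7. For ORE1 over JUB1, the groups of day 7 overlapped between each line and WT. At day 0 that ratio was 19.3 in WT, 11.7 in ml2 and 14.1 in ml5, with few JUB1 reads. There ml2 lay below WT without overlap (exact permutation p = 0.1), the opposite side to NAP over VNI2, and ml5 overlapped with WT.

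**Figure D4:**
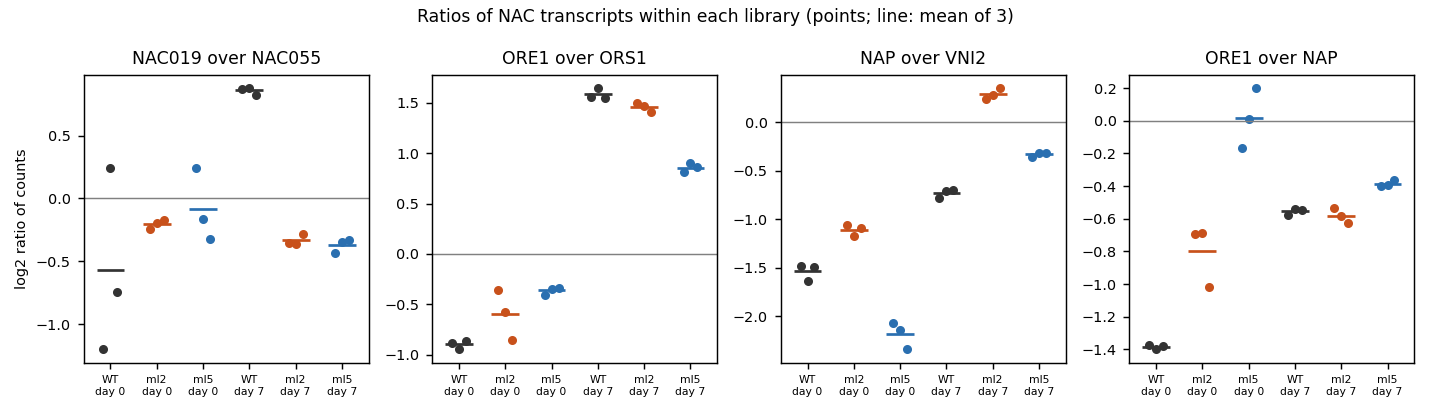
Log2 ratio of the counts of 2 NAC transcripts within each library (y axis) in the 6 groups; points are libraries and lines the mean of 3. In the NAC019 over NAC055 panel the WT libraries of day 7 lie at 0.83 to 0.88 and those of ml2 and ml5 between -0.43 and -0.29.

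Genes reported as targets of the members were counted from a list of 21, of which 20 were tested. The list does not separate targets reported as activated from those reported as repressed, so its counts are not a measure of target activity. In WT 14 were higher and 6 lower after darkness (42.0% and 39.9% of all genes), with a median log2 fold change of 2.82. NYC1, a chlorophyll b reductase, rose from 151 ± 2.47 to 2580 ± 12.6 CPM, SGR1, which removes magnesium from chlorophyll, from 23.6 ± 0.734 to 390 ± 7.37, and the NAP target SAG113 from at most 1.5 CPM in a library to 400 ± 9.54. At day 0, 17 targets were higher and 0 lower in ml2, where 21.9% and 22.6% of all genes were. In ml5 9 were higher and 2 lower, where 19.5% and 18.8% of all genes were. RD29A, a VNI2 target and dehydration marker, was higher in both lines at day 0 (1.43 ± 0.086 in ml2 and 2.05 ± 0.086 in ml5).

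At day 7, 3 targets were higher and 10 lower in ml2 (13.4% and 12.4% of all genes), and 1 was higher and 15 lower in ml5 (19.3% and 24.0% of all genes), with a median log2 fold change of -0.19 and -0.49. The 3 higher in ml2 were ABCG40, ACS2 and ICS1, and the 1 in ml5 was ICS1, a salicylic acid synthesis gene; ACS2 and ICS1 are named here after their values were seen. SAG113 was lower than in WT in both lines, by -1.23 ± 0.051 in ml2, where its regulator NAP was higher than in WT, and by -0.80 ± 0.050 in ml5, where NAP was lower. BFN1, the ORE1 target, read 58.2 ± 3.25 CPM in WT and 53.9 ± 1.37 in ml2 (adjusted p = 0.399), and 17.1 ± 0.445 in ml5 (-1.76 ± 0.096), a larger difference than that of ORE1 there. SAG29, a sugar transporter gene, stood at 22.9 ± 0.503 CPM in WT, 9.82 ± 0.408 in ml2 and 3.10 ± 0.136 in ml5. Among the genes of the deposited table it is the nearest to one side of VNI2, 12901 bases away. ABCG40, an abscisic acid importer gene reported as an ATAF1 target, was higher in ml2 at day 7 (1.76 ± 0.092), where ATAF1 was lower. The log2 fold change with darkness was lower than in WT for 16 targets in each line (15.6% of all genes in ml2 and 18.1% in ml5), and higher for 0 in ml2 and 1 in ml5. These include targets that fell in WT, such as RD29A, for which a lower value is a larger fall.

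Among 11 reported upstream regulators, MYC2, the jasmonate regulator reported to act on NAC019, NAC055 and RD26, is described for that role. It went from 78.5 ± 2.45 to 258 ± 6.68 CPM in WT, from 157 ± 9.35 to 136 ± 8.29 in ml2 and from 95.2 ± 3.12 to 147 ± 2.53 in ml5. Its difference of dark response was -1.91 ± 0.074 in ml2 and -1.08 ± 0.075 in ml5. The clock genes CCA1, reported to repress ORE1, and PRR9, reported to promote it, were both lower at day 0 in ml2 (-1.41 ± 0.057 and -0.96 ± 0.056) and in ml5 (-1.47 ± 0.059 and -1.02 ± 0.058). At day 7 CCA1 stood at 70.6 ± 1.04 CPM in WT, 27.9 ± 2.13 in ml2 and 88.0 ± 2.69 in ml5. Over the list, 2 were higher and 4 lower in ml2 and 5 higher and 4 lower in ml5 at day 0. At day 7 the counts were 4 and 4 in ml2, and 4 and 3 in ml5. Regulators not called numbered 5 in ml2 and 2 in ml5 at day 0, and 3 and 4 at day 7. Of all genes 44.5% in ml2 and 38.3% in ml5 were called at day 0, and 25.8% and 43.3% at day 7. The share called in this list of 11 was thus nearest to that of all genes in ml2 at day 0. It lay further above it in ml5 on both days and in ml2 at day 7.

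A list of 7 genes held those reported to act on the ORE1 protein, together with GLK1 and GLK2, chloroplast regulators that ORE1 binds. Of these 7, NLA, a ubiquitin ligase for ORE1, rose with darkness in every genotype (1.98 ± 0.073 in WT, 1.93 ± 0.068 in ml2 and 1.37 ± 0.070 in ml5). GLK1 and GLK2 were lower in both lines at day 0, with GLK2 at 341 ± 13.6 CPM in WT, 195 ± 20.5 in ml2 and 216 ± 5.50 in ml5. After darkness GLK2 was lower than WT in ml2 (92.5 ± 3.29 against 148 ± 6.87 CPM) and higher in ml5 (187 ± 1.02 CPM). The list held 2 higher and 2 lower in ml2 and 2 higher and 3 lower in ml5 at day 0, and 1 higher and 2 lower in ml2 and 3 higher and 1 lower in ml5 at day 7. With 7 genes, these counts stand against 44.5% and 38.3% of all genes called at day 0 in ml2 and ml5, and 25.8% and 43.3% at day 7.

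The 3 tested NAC genes of the miR164 target list, NAC1, NAC100 and NAC080, all rose with darkness in each genotype, NAC100 by 4.64 ± 0.15 in WT. Of all genes, 42.0% in WT, 39.6% in ml2 and 39.7% in ml5 were higher. At day 0, 0 of 3 differed in ml2, where 44.5% of all genes were called. In ml5 1 was lower (NAC1, -0.23 ± 0.056), as were 18.8% of all genes. With 3 genes, these counts cannot set the list apart from all genes. ORE1 was higher in both lines on that day. At day 7, 1 was lower in ml2 (12.4% of all genes) and all 3 were lower in ml5 (24.0% of all genes). Of 12 other NAC genes linked to senescence, 11 were higher with darkness in WT and 0 lower (42.0% and 39.9% of all genes). In ml2 10 were higher and 0 lower at day 0 (21.9% and 22.6% of all genes), and 2 higher and 3 lower at day 7 (13.4% and 12.4%). In ml5 4 were higher and 1 lower at day 0 (19.5% and 18.8%), and 2 higher and 8 lower at day 7 (19.3% and 24.0%). NAC032, a relative of ATAF1, lay above WT in ml2 at day 0 (1.29 ± 0.13) and below at day 7 (-0.48 ± 0.091), as RD26 did.

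The tested genes whose log2 CPM followed each member most closely over the 18 libraries were found by Pearson's r, as a description of samples that share the day and the genotype. NAC032 followed RD26 (r = 0.9899), RD20 and the citrate synthase gene CSY3 followed ATAF1 (0.9907 and 0.9933), and ABI1, a phosphatase gene of abscisic acid signalling, followed NAC019 (0.9922). For NAC055 the closest was PCR2 (0.9962), which was also the next closest to ORE1 (0.9931). ORS1 had no gene with r over 0.95 and was followed best by RHA1B (0.9283), and JUB1 had 4 such genes, whereas NAC055 had 1511.

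On the genome (RefSeq annotation of TAIR10.1), the members are spread over all nuclear chromosomes. The gene models span chr1:26122080-26123514 for NAP, chr5:15858398-15859911 for ORE1, chr3:11033665-11035308 for ORS1, chr1:267993-269819 for ATAF1 and chr1:12448543-12451287 for NAC016. They span chr3:5234457-5236196 for NAC055, chr1:19696923-19698482 for NAC019, chr4:13707192-13709170 for RD26, chr2:17880457-17882636 for JUB1 and chr5:4196256-4197940 for VNI2. NAC016 has 5 exons and encodes 576 residues, and the others have 3 exons and encode 252 to 318 residues. ORE1 and ORS1 are 81.3% identical over the aligned coding bases, and the longest exact run shared by any pair of members was 24 bases, between NAP and NAC019. How reads that match several genes were counted is also not stated. ATAF1, JUB1 and VNI2 overlap annotated genes on the opposite strand, and no source used here says whether counting used strand, so their values may hold reads of those genes. Among the genes of the deposited table, NAC055 and NAC019 each have another NAC gene next to them, 7235 and 6333 bases away. These neighbours, chosen by place, rose with darkness in WT by 0.18 ± 0.066 and 0.23 ± 0.065. NAC016 lies 117 bases from NAC017 on the same strand, which rose by 0.25 ± 0.053.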

How the data were processed

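The authors deposited a table of estimated counts for 18 leaf libraries (total RNA by Trizol, TruSeq RNA kit, per the labels' protocols). The submitters' processing notes name TopHat2 2.0.12 and Bowtie2 2.0.6 and the builds TAIR10 and IRGSP-1.0; the counting tool, its strand setting and the role of the rice build are not stated in any source used here. Of all values 97.12% were whole numbers; counts were rounded, which changed no value of a member. Genes passing filterByExpr (minimum count 10) were tested with edgeR 4.0.16 (R 4.3.3), with TMM scaling, 6 group means over 18 libraries and glmQLFTest, two-sided, with Benjamini-Hochberg adjustment within each of 12 comparisons. The common coefficient of variation was 5.63%. Ratios within a library used counts plus 0.5 and exact permutation tests. The scripts were tested on simulated data.

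Alternatives were library sizes alone, RLE size factors, a stricter filter and none, limma 3.58.1, DESeq2 1.42.0, no organelle genes, the compared groups alone, a replicate block and leaving out each library. The members and gene lists were chosen with earlier results of these data known. Beyond the members, the text names up to 3 called genes per list and comparison by smallest adjusted p, and the 2 most alike genes per member. Some genes are named outside this rule. They include MYC2, for its reported role, ACS2 and ICS1, after their values were seen, and neighbours, by place. Markers, the targeted genes and genes with miR164 sites are also named, and BFN1 is given in ml2 though it was not called there. Levels per kilobase use the longest RefSeq transcript, and sequences and gene models are from RefSeq TAIR10.1, whose nuclear chromosomes are those of TAIR10. Of the table, 8135 genes with low counts were not tested.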

Additional observations from a re-analysis of the deposited data

Results flagged for a closer look

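A change from day 0 to day 7 that differed between genotypes, by the interaction of genotype and day in edgeR's quasi-likelihood fit, set these members apart for a closer look. The value is a difference of log2 fold changes, negative where the rise was smaller in the line named first.

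For ml2 minus WT the differences were -3.15 for NAC019, -1.61 for NAC055, -1.46 for RD26, -1.14 for JUB1, -0.96 for ATAF1, -0.54 for ORE1 and -0.53 for VNI2.

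For ml5 minus WT they were -2.74 for NAC019, -1.66 for JUB1, -1.09 for RD26, -1.06 for NAC055, -0.99 for ORE1, -0.82 for VNI2 and -0.79 for ATAF1. On the other side stood ORS1 at 0.27 (adjusted p = 0.0278) and NAP at 0.24 (adjusted p = 0.0282).

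For ml5 minus ml2 they were 0.79 for NAC016, 0.56 for NAC055, 0.41 for NAC019, 0.39 for ORS1, 0.38 for RD26, -0.46 for ORE1 and -0.29 for VNI2. Those of NAC016 and NAC019 were lost without ml5 day 0 replicate 3, at 0.46 and 0.33. In that library NAC016 read 1.06 CPM and JUB1 1.72 CPM, the lowest of their group.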

How the results depend on the processing

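Across 3240 values of single members under the alternatives, 3195 kept their direction and side of the threshold, 25 lost the call, 20 gained it and 0 called values reversed. Leaving out each library gave 10 members called for darkness in each genotype and for ml2 against WT at day 7, 9 to 10 for ml2 and 7 to 8 for ml5 against WT at day 0, and 8 to 9 for ml5 against WT at day 7. It gave 8 to 10 and 7 to 8 for ml5 against ml2 at day 0 and day 7, and 7 to 8, 7 to 9 and 6 to 8 for the differences of dark response of ml2 from WT, ml5 from WT and ml5 from ml2. The order of the 6 groups was kept by 8 to 10 members in these, and by 7 of 10 with library sizes alone.

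Replicate numbers did not pair the samples: over 45 pairs of same-numbered libraries the correlation of deviations lay between -0.121 and 0.0772. With the replicate number as a block the members called stayed at 10 for darkness in WT, at 7 for ml5 against WT at day 0 and at 9 for ml5 against WT at day 7, and no count of members changed in any comparison.

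With library sizes alone the share of higher among all called genes went from 51.3% to 64.3% for darkness in WT and from 49.7% to 65.3% in ml5. It went from 49.3% to 66.8% for ml2 against WT at day 0 and from 51.9% to 41.2% at day 7. For ml5 against ml2 it went from 49.4% to 26.8% at day 0 and from 45.9% to 60% at day 7. For the response it went from 46.3% to 22.8% for ml2 minus WT and from 52.8% to 80.6% for ml5 minus ml2. The median of all genes moved by 0.11 for ml2 against WT at day 0, and by -0.15 and 0.18 for these responses. Depth limits JUB1 and NAC016 most, with as few as 11 and 16 reads in a library at day 0.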
